A study of Mus musculus with 3 samples.

Results

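Erdafitinib, FIIN_2 and SU_5402 are the 3 inhibitors of fibroblast growth factor (FGF) receptors that were followed here. They were chosen by name as the wells of compounds aimed at these receptors. They are 3 of the 89 compound wells that could be given to plate 2 by the barcode lists, and 3 of 254 wells so placed in the series. PD_166866, another inhibitor of these receptors, is listed on plate 2 but could not be given to 1 plate, and was not used. Erdafitinib is a clinically approved inhibitor of all FGF receptors, FIIN_2 binds the same receptors irreversibly, and SU_5402 is an older compound that also blocks vascular endothelial growth factor receptors. The series used DRUG-seq2, in which the RNA of each well of a 96-well plate is barcoded during reverse transcription and the wells are then pooled into one library, on wild-type (WT) mouse embryonic fibroblasts (MEF). All cells, reference wells included, were kept in a medium named CFAE+8, whose content the labels do not give, with 1 compound of a kinase inhibitor library per well for 4 days. The sources used here do not give the concentration, so the compounds are compared at matched time but at doses that may differ. No well is named as a vehicle control in the barcode lists. Each of the 3 wells was set against 84 other compound wells of plate 2, so a difference is one from the usual well of a kinase inhibitor plate and not from untreated cells. Each compound had 1 well (a second Erdafitinib column with identical counts was counted once), so the spread behind every test is that between wells of different compounds, and a single well is assumed to vary like them. Whether wells were separate cultures is not stated, and this spread may be partly technical.

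FGF ligands bind their receptors together with heparan sulfate carried by syndecans and glypicans, and the active receptor recruits the adaptor FRS2, GRB2 and SOS to switch on RAS and the RAF, MEK and ERK kinases. ERK in turn raises the ETS factors Etv4 and Etv5, AP-1 subunits such as Fosl1, and its own brakes, the Sprouty and Spred proteins and the dual-specificity phosphatases. In fibroblasts this chain supports entry into the cell cycle and is known to hold back contractile and matrix genes.

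Expression is given as CPM, a gene's count scaled to a total of 1000000 per well, and changes as the log2 fold change ± its standard error (SE) from the edgeR quasi-likelihood fit, with 0.05 as the limit of the adjusted p for a call. The Erdafitinib well held 725411 counts, the FIIN_2 well 347047 and the SU_5402 well 778242, against 92437 to 1206219 (median 608985.5) in the reference wells. FIIN_2 was therefore the shallowest of the 3, and a count of 0 there bounds a gene less tightly. Mitochondrial genes took 0.932%, 1.41% and 0.870% of the counts, within the 0.734% to 2.33% of the reference wells. The cells carried fibroblast genes: the 26 fibroblast and matrix markers summed to 18697 CPM with Erdafitinib, 16393 CPM with FIIN_2 and 10501 CPM with SU_5402, against 5583 to 13714 CPM (median 10792) in the reference wells. A lower share of a transcript in a well can mean fewer cells that express it or less of it per cell, and the counts cannot tell these apart.

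Against the plate, Erdafitinib and FIIN_2 each changed over 11% of the tested genes, and SU_5402 changed none that passed the test. With Erdafitinib 727 genes rose and 534 fell of 9431 tested (13.4% called, 7.71% up and 5.66% down), and 637 of the risen and 404 of the fallen genes moved at least 2-fold. With FIIN_2 614 rose and 498 fell (11.8%, 6.51% up and 5.28% down), of which 537 and 407 moved at least 2-fold. With SU_5402 the edgeR test called 0 genes (0%), DESeq2 also called 0, and the unadjusted p was below 0.05 for 146. The median log2 fold change over all genes was -0.05, -0.05 and -0.02 in the 3 wells. The 3 comparisons share their reference wells, so their calls are not independent of one another. Of the 109 genes in the 6 lists of FGF and ERK pathway genes, 105 were in the table. Of these, 74 had enough counts to be tested, none of them only through the 3 wells. Among all 9431 tested genes 162 had enough counts only through the 3 wells. The same held for 6 of the 325 tested genes of all lists. For such genes the filter itself favours a rise, so shares of risen genes outside the 6 lists may be raised by it.

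On the receptor side of the pathway Fgfr2 rose in the Erdafitinib and FIIN_2 wells, and the syndecan and glypican co-receptors moved in both directions. Fgfr2 encodes one of the targeted receptors and lies at chr7:130162451-133123350, minus strand, in mm10, from which all gene positions here are given. It stood at 114 CPM with Erdafitinib, 98.0 CPM with FIIN_2 and 18.0 CPM with SU_5402, and the reference wells ranged from 2.63 to 43.3 CPM (median 13.7 CPM). Both inhibitor wells lay above every reference well, while SU_5402 lay inside their range. The log2 fold change of Fgfr2 was 2.78 ± 0.33 with Erdafitinib (adjusted p = 1.04e-10) and 2.46 ± 0.42 with FIIN_2 (adjusted p = 8.38e-06); its exons overlap those of Ctbp2, and the sources do not say whether counting used strand. Fgfr1, the FGF receptor gene typical of mesenchyme (its exons overlap Gm16159), was at 119 CPM with Erdafitinib, 141 CPM with FIIN_2 and 163 CPM with SU_5402, all within the 89.9 to 245 CPM (median 153 CPM) of the reference wells, and was not called in any of them. Fgfr3 had 6.89 CPM with Erdafitinib, 8.64 CPM with FIIN_2 and 1.28 CPM with SU_5402 and a reference maximum of 5.80 CPM; it was too low to be tested. Fgfr4 had 0 counts in all 3 wells.

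Among the 13 tested receptor and co-receptor genes, 4 rose and 3 fell with Erdafitinib, and 5 rose and 3 fell with FIIN_2 (median log2 fold change -0.53, or 0.00 with a gene at 0 counts set to its bound, and 0.28). For comparison, 7.71% and 6.51% of all genes rose in these wells, and 5.66% and 5.28% fell. Gpc4, a glypican, was at 74.4 CPM with Erdafitinib, 46.1 CPM with FIIN_2 and 10.3 CPM with SU_5402 against 0 to 27.8 CPM (median 10.6 CPM), and rose by 2.58 ± 0.37 and 1.79 ± 0.52 on the log2 scale. Both wells were above every reference well. Gpc6 rose by 1.68 and 1.64 and Sdc2, a syndecan, by 0.76 and 0.98. In the other direction Gpc1, another glypican, fell to 251 and 219 CPM from a reference median of 480.0 CPM (log2 fold change -1.09 and -1.39). Sdc1 fell (-0.91 and -1.44), and Sdc3 (-1.07 and -1.59). Flrt3, an FGF receptor-binding membrane protein, was called only in the FIIN_2 comparison (log2 fold change 2.22 ± 0.63, adjusted p = 0.0109; 1.27 ± 0.61 and adjusted p = 0.163 with Erdafitinib), and the difference between the 2 wells was -0.95 (95% interval -2.63 to 0.72). The Sdc1 call with Erdafitinib ended under 4 of the alternatives (adjusted p 0.0589 to 0.0823), and those of Sdc3 with Erdafitinib and Gpc6 with FIIN_2 ended with no filter on low counts (0.0563 and 0.0737).

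Most ligand genes were too low to be tested, and genes of the core chain were called at about the share of all genes. Of the FGF ligand genes only Fgf13, an intracellular member of the family, had enough counts to be tested, and it was not called (log2 fold change 0.64 ± 1.03 with Erdafitinib, 0 counts with FIIN_2). Of 17 tested genes for adaptors, RAS, RAF, MEK and ERK, 1 rose and 1 fell with each of Erdafitinib and FIIN_2. Over all genes 13.4% and 11.8% were called in these wells. The medians of the 17 genes were -0.08 and 0.00, near those of all genes. Nras, one of the RAS genes, was the member that fell in both (60.7 CPM with Erdafitinib, 57.6 CPM with FIIN_2 and 104 CPM with SU_5402, reference 52.0 to 212 CPM (median 97.2 CPM); adjusted p = 0.0453 and 0.0422), and both calls ended under DESeq2 (adjusted p = 0.0662 and 0.0790). Ptpn11, which encodes the phosphatase SHP2 that relays FGF receptor signals, rose with Erdafitinib (1.40 ± 0.38), and Grb2 rose with FIIN_2 (0.81 ± 0.26), a call lost with no filter on low counts (0.0577). The MEK kinase genes Map2k1 and Map2k2 were not called in any well.

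Transcripts of the pathway's own brakes were lower in the Erdafitinib and FIIN_2 wells. The 14 feedback inhibitor genes in the table summed to 119.9 CPM with Erdafitinib, 112 CPM with FIIN_2 and 213 CPM with SU_5402, against 123 to 389 CPM (median 271) in the reference wells, so the 2 wells lay below every reference well and SU_5402 did not. Of 11 tested members, 5 fell and 0 rose with Erdafitinib and 2 fell and 0 rose with FIIN_2, and the medians of -2.03 and -2.50 became -1.09 and -1.25 when members at 0 counts (3 and 5) were set to their bound. Among all tested genes 5.66% fell with Erdafitinib and 5.28% with FIIN_2. Spred1, which blocks RAF activation by RAS, was at 19.3 CPM with Erdafitinib, 37.5 CPM with FIIN_2 and 61.7 CPM with SU_5402, with 23.1 to 125 CPM (median 72.9 CPM) in the reference wells. It fell with Erdafitinib, whose well was the lowest of all 87 (-2.02 ± 0.43, adjusted p = 0.000256), and had -1.17 ± 0.44 with FIIN_2 (adjusted p = 0.0659). Spred2 gave -2.03 ± 0.46 (adjusted p = 0.000748) and -1.25 ± 0.49 (adjusted p = 0.0808). The log2 difference between the 2 wells was -0.85 for Spred1 (95% interval -2.10 to 0.40) and -0.78 for Spred2 (-2.21 to 0.65), so a call in 1 well alone does not show a difference between them.

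The remaining feedback genes were rare transcripts, and their values are bounded by single counts. Spry4, a Sprouty, had 0 counts with Erdafitinib, at least 2.02-fold lower than the pooled reference (adjusted p = 0.00841), and 1 count with FIIN_2, a ratio of 0.344 (95% counting interval 0.00869 to 1.93). Dusp4, a phosphatase of nuclear ERK, had 1 count with Erdafitinib (ratio 0.121 (95% counting interval 0.00307 to 0.678), adjusted p = 0.0435) and 0 with FIIN_2, at least 1.31-fold lower but not called (adjusted p = 0.0584). Il17rd, an antagonist of FGF signalling also called Sef, had 1 count in each of the 2 wells, with ratios of 0.0948 (95% counting interval 0.00240 to 0.530) and 0.198 (95% counting interval 0.00501 to 1.11), and was called with Erdafitinib (adjusted p = 0.0216). Dusp7, a cytoplasmic ERK phosphatase, had 0 counts with FIIN_2, at least 2.46-fold lower (adjusted p = 0.00105), and Spred3 was at 11.5 CPM there against a reference median of 41.5 CPM (log2 fold change -2.09 ± 0.72, adjusted p = 0.0408). Dusp6, the ERK phosphatase most used as a readout of FGF signalling, had 0 counts in both wells and 2 with SU_5402, against a reference median of 3.99 CPM, and was not called. Under DESeq2 the calls of Spry4, Dusp4 and Il17rd with Erdafitinib (adjusted p = 0.0833, 0.171 and 0.117) and of Dusp7 and Spred3 with FIIN_2 (0.0592 and 0.0711) ended, while those of Spred1 and Spred2 with Erdafitinib held under each alternative run for them.

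Etv4 and Etv5, the ETS factors that ERK drives, and the AP-1 subunit gene Fosl1 set the Erdafitinib and FIIN_2 wells apart from the other wells tested on plate 2. MEK inhibitor wells of another plate, given below, also had low Etv4. Etv4 lies at chr11:101769742-101785371, minus strand, and Etv5 at chr16:22381309-22439719, minus strand. Etv4 was at 16.5 CPM with Erdafitinib, 25.9 CPM with FIIN_2 and 185 CPM with SU_5402, with 32.5 to 262 CPM (median 171 CPM) in the reference wells. Etv5 was at 11.0 CPM with Erdafitinib, 14.4 CPM with FIIN_2 and 66.8 CPM with SU_5402, with 25.0 to 127 CPM (median 82.2 CPM). For both genes the Erdafitinib and FIIN_2 wells were the lowest of the 87 wells, below every reference well, and SU_5402 was in the middle of the range or in its lower part. Etv4 fell, with log2 fold changes of -3.48 ± 0.56 and -2.94 ± 0.59 (adjusted p = 1.34e-06 and 0.000189). Etv5 fell as well, with -3.06 ± 0.53 and -2.78 ± 0.60 (adjusted p = 4.79e-06 and 0.000492). Fosl1, which encodes the AP-1 subunit FRA-1, had 3 counts in each of the 2 wells and 66 with SU_5402 (4.14 CPM with Erdafitinib, 8.64 CPM with FIIN_2 and 84.8 CPM with SU_5402, reference 25.0 to 283 CPM (median 106 CPM)). Its ratio to the pooled reference was 0.0397 (95% counting interval 0.00818 to 0.116) with Erdafitinib (adjusted p = 1.7e-06) and 0.0830 (95% counting interval 0.0171 to 0.243) with FIIN_2 (adjusted p = 0.000418); exons of Fosl1 overlap those of Ccdc85b.

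Over the 14 tested factors 7 fell and 1 rose with Erdafitinib, and 5 fell and 1 rose with FIIN_2 (medians -0.76 and -0.67). The shares over all genes were 5.66% and 5.28% fallen, and 7.71% and 6.51% risen. Elk3, an ETS factor switched by ERK phosphorylation, fell (-1.24 and -1.22), and the immediate-early gene Ier2 (-1.46 and -1.55); exons of Elk3 overlap those of Cdk17. Jun and Etv1 were called with Erdafitinib, near the threshold (adjusted p = 0.0468 and 0.0404), and lost the call under DESeq2 (0.0635 and 0.200). Jun had log2 fold changes of -0.89 with Erdafitinib and -0.90 with FIIN_2 (adjusted p = 0.0831), and the 2 wells differed by 0.01 (95% interval -0.92 to 0.94); exons of Jun overlap those of Junos. For Etv1, at 1 and 3 counts, the log2 difference between them had a 95% interval of -5.16 to 0.43. Ier2 with FIIN_2 lost its call with no filter on low counts (0.0555). Fosl2, another AP-1 gene, went the other way, with 89.6 CPM with Erdafitinib, 109 CPM with FIIN_2 and 46.3 CPM with SU_5402 against 10.8 to 84.3 CPM (median 39.5 CPM), and rose by 0.97 and 1.15. Egr1, Atf3, Ier3, Junb, Maff and Srf were not called in any of the 3 wells.

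**Figure D1:**
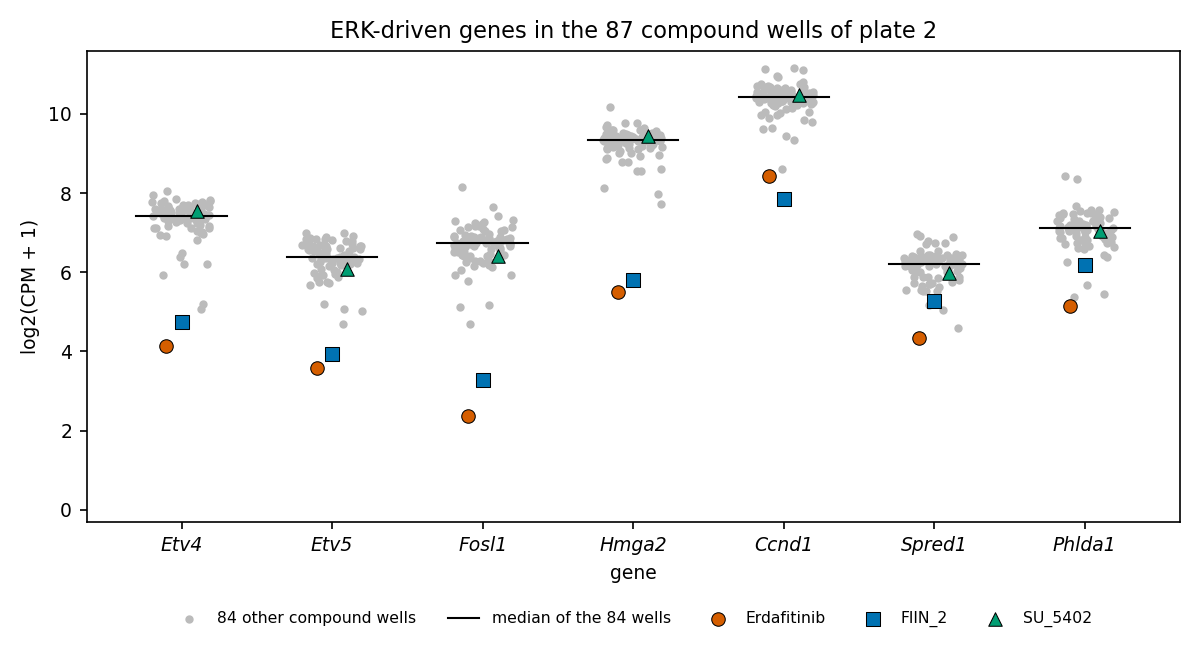
Expression of 7 ERK-driven genes on the log2(CPM + 1) scale in each well of plate 2; grey points are the 84 reference wells and the coloured marks are the 3 FGF receptor inhibitor wells. Etv4, Etv5, Fosl1, Hmga2 and Ccnd1 lay below every grey point with Erdafitinib and FIIN_2, while the SU_5402 mark lay among the grey points for all 7 genes.

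Further ERK target genes fell in the same 2 wells, among them a cyclin and an oncofetal chromatin protein. Hmga2 (chr10:120361275-120476469, minus strand) encodes an architectural chromatin protein of embryonic and transformed cells. It was at 44.1 CPM with Erdafitinib, 54.7 CPM with FIIN_2 and 689 CPM with SU_5402, with 212 to 1145 CPM (median 651 CPM) in the reference wells, and fell, with log2 fold changes of -3.99 ± 0.47 and -3.78 ± 0.48 (adjusted p = 5.45e-11 and 2.56e-09). Ccnd1 (chr7:144929931-144939925, minus strand), which encodes cyclin D1, was at 345 CPM with Erdafitinib, 231 CPM with FIIN_2 and 1431 CPM with SU_5402, with 390.9 to 2277 CPM (median 1379 CPM), and fell, with log2 fold changes of -2.13 ± 0.38 and -2.81 ± 0.41 (adjusted p = 1.01e-05 and 1.49e-07). The 2 wells did not overlap the reference wells for either gene. Exons of Hmga2 overlap 1700006J14Rik and those of Ccnd1 overlap LTO1. Emp1, an epithelial membrane protein gene, was at 163 CPM with Erdafitinib, 92.2 CPM with FIIN_2 and 253 CPM with SU_5402 against 159 to 488 CPM (median 293 CPM), and fell (-1.06 and -1.98). Ereg, which encodes the EGF receptor ligand epiregulin, had 1 count with Erdafitinib (ratio 0.0586 (95% counting interval 0.00148 to 0.327)) and 0 with FIIN_2 (at least 2.72-fold lower); both were called (adjusted p = 0.0103 and 0.0307) and neither under DESeq2 (0.0526 and 0.0593). Phlda1, a pleckstrin homology protein gene, was at 34.5 CPM with Erdafitinib, 72.0 CPM with FIIN_2 and 131 CPM with SU_5402 against 40.8 to 343 CPM (median 138 CPM), and was called with Erdafitinib (-2.14 ± 0.49) but not with FIIN_2 (-1.18 ± 0.48, adjusted p = 0.0950). Of the 18 tested members of this list 5 fell with Erdafitinib and 4 with FIIN_2, 0 rose, and the medians were -1.94 and -1.98, or -1.53 and -1.31 with members at 0 counts set to their bound. Beside this, 5.66% and 5.28% of all genes fell.

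The stromelysin and collagenase genes Mmp3, Mmp10 and Mmp13, neighbours on chromosome 9, are textbook AP-1 targets, and their promoters are shown because Fosl1 encodes one of the subunits. The stretches below come from RefSeq promoters (GRCm38.p6), 5′ to 3′, and the capitals mark the AP-1 letters TGANTCA, 57 to 63, 40 to 46 and 29 to 35 bases before the annotated start.
Mmp10, chr9:7502253-7502312 (+ strand): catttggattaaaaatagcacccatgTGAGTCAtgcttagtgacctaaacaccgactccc
Mmp3, chr9:7445750-7445809 (+ strand): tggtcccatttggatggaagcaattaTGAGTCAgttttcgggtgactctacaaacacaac
Mmp13, chr9:7272453-7272512 (+ strand): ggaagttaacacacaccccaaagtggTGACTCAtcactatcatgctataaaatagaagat
These letters, read on both strands, occur in 6.75% of 32851 promoters of 250 bases. They occur in 5 of the 15 promoters used for the 21 other ERK target genes (Emp1, Lif, Mmp3, Mmp13 and Plaur). The share was alike in lists outside the pathway, with 4 of 12 promoters for oxidative stress genes and 4 of 12 for interferon response genes. It was 0 of 13 for the ERK-driven transcription factors and 0 of 12 for the feedback inhibitors. These counts describe the letters and not binding. Mmp10 was at 2.76 CPM with Erdafitinib, 8.64 CPM with FIIN_2 and 60.4 CPM with SU_5402, with 5.62 to 362 CPM (median 81.6 CPM) in the reference wells. The Erdafitinib well was the lowest of all, with 2 counts and a ratio of 0.0298 (95% counting interval 0.00361 to 0.108) (adjusted p = 0.0120), and FIIN_2 had 3 counts and a ratio of 0.0935 (95% counting interval 0.0193 to 0.274) (adjusted p = 0.0884). Mmp3 was at 99.3 CPM with Erdafitinib, 86.4 CPM with FIIN_2 and 191 CPM with SU_5402 against a reference range of 58.9 to 736 CPM (median 229 CPM), and Mmp13 at 16.5 CPM with Erdafitinib, 20.2 CPM with FIIN_2 and 42.4 CPM with SU_5402 against 7.20 to 424 CPM (median 56.2 CPM). Neither Mmp3 nor Mmp13 was called in any well, and all 3 wells lay inside the reference range for both.

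Among the genes that rose, Sst led in both wells. Sst (chr16:23889573-23890958, minus strand) encodes the neuropeptide somatostatin. Its count was 171 with Erdafitinib, 261 with FIIN_2 and 3 with SU_5402, or 236 CPM, 752 CPM and 3.85 CPM. The reference wells ranged from 0 to 45.7 CPM with a median of 0, so both wells stood above every reference well. The log2 fold change was 6.67 ± 0.50 (adjusted p = 3.61e-20) and 8.24 ± 0.44 (adjusted p = 6.1e-30), and DESeq2 called it with FIIN_2 but not with Erdafitinib (adjusted p = 0.0908). The Sst promoter holds the cyclic AMP response element through which cyclic AMP is known to drive it, shown here from RefSeq (GRCm38.p6) with the letters TGACGTCA in capitals, 41 to 48 bases before the RefSeq start. This start lies inside the GENCODE span given above, which begins farther upstream, so the stretch is inside that span too. These letters, which read the same on both strands, occur in 1.55% of the 32851 promoters.
Sst, chr16:23890874-23890903 (- strand): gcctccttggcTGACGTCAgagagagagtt
Igfbp2, an insulin-like growth factor binding protein, was at 896 CPM with Erdafitinib, 1386 CPM with FIIN_2 and 7.71 CPM with SU_5402 against 0 to 207 CPM (median 10.7 CPM), and rose by 5.35 ± 0.46 and 5.87 ± 0.47. The chemokine gene Cxcl14 was at 1379.9 CPM with Erdafitinib, 1351 CPM with FIIN_2 and 6.42 CPM with SU_5402 against 1.85 to 317 CPM (median 16.6 CPM), and the chemokine gene Cxcl12 at 430.1 CPM with Erdafitinib, 369 CPM with FIIN_2 and 5.14 CPM with SU_5402 against 0 to 109.9 CPM (median 5.74 CPM). Ogn, a small leucine-rich proteoglycan, was at 296 CPM with Erdafitinib, 403 CPM with FIIN_2 and 0 CPM with SU_5402 against 0 to 61.2 CPM (median 3.51 CPM). For each of these genes Erdafitinib and FIIN_2 were the 2 highest wells of the plate, and SU_5402 lay inside the reference range.

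By size the named risen genes with Erdafitinib also included Prss23, a serine protease (4.12), Sfrp1, a secreted Wnt antagonist (3.98), Col1a1, Col3a1 and the collagen cross-linker Lox (3.87). With FIIN_2 they included Wisp1, a matricellular protein (3.71), Parm1 (3.66) and Sulf1, a sulfatase that trims heparan sulfate (3.58); Lox with FIIN_2 was not called by DESeq2 (adjusted p = 0.0662). Each of Prss23, Sfrp1, Wisp1, Parm1 and Sulf1 was called in both wells and was highest of all wells of the plate in these 2. The named fallen genes were nearly all at 0 counts. P2ry2, a receptor for extracellular nucleotides, had 0 counts with Erdafitinib (at least 4.93-fold lower, adjusted p = 2.66e-05), 1 with FIIN_2 and 25 with SU_5402. Entpd1, the ectonucleotidase CD39, had 0 counts with Erdafitinib (at least 6.35-fold lower), as had Ano1, a chloride channel (at least 5.33-fold), Calcb, Grp, Car8, Mapk11, Krt23 and Il18rap (at least 2.82-fold to 5.81-fold) and 1700012B09Rik; Krt23 and Il18rap were not called by DESeq2 (0.0509 and 0.0530), and Krt23 and 1700012B09Rik not without the filter (0.0527 and 0.0630). Agtr2, an angiotensin II receptor, fell from a reference median of 140.4 CPM to 10 counts with Erdafitinib and 0 with FIIN_2 (at least 15.2-fold lower), while SU_5402 had 117. Ccl12, a chemokine, Klf10, a TGF-beta-induced zinc finger factor, Col7a1, the collagen of anchoring fibrils, and Nptx2, a pentraxin, also had 0 counts with FIIN_2 (at least 7.03, 4.65, 5.23 and 3.65-fold lower). The remaining fallen genes of the FIIN_2 rule, Ereg, 9530053A07Rik, Ptgis, Gpatch4 and Pfas, were at 0 counts as well (at least 2.48-fold to 2.76-fold lower), and none of these 5 was called by DESeq2 (0.0536 to 0.0613). Exons of Gpc1, Prss23, Col7a1, Tgfb2, Spp1, Lrrc17, Kctd1 and Itfg1 also overlap those of another gene.

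**Figure D2:**
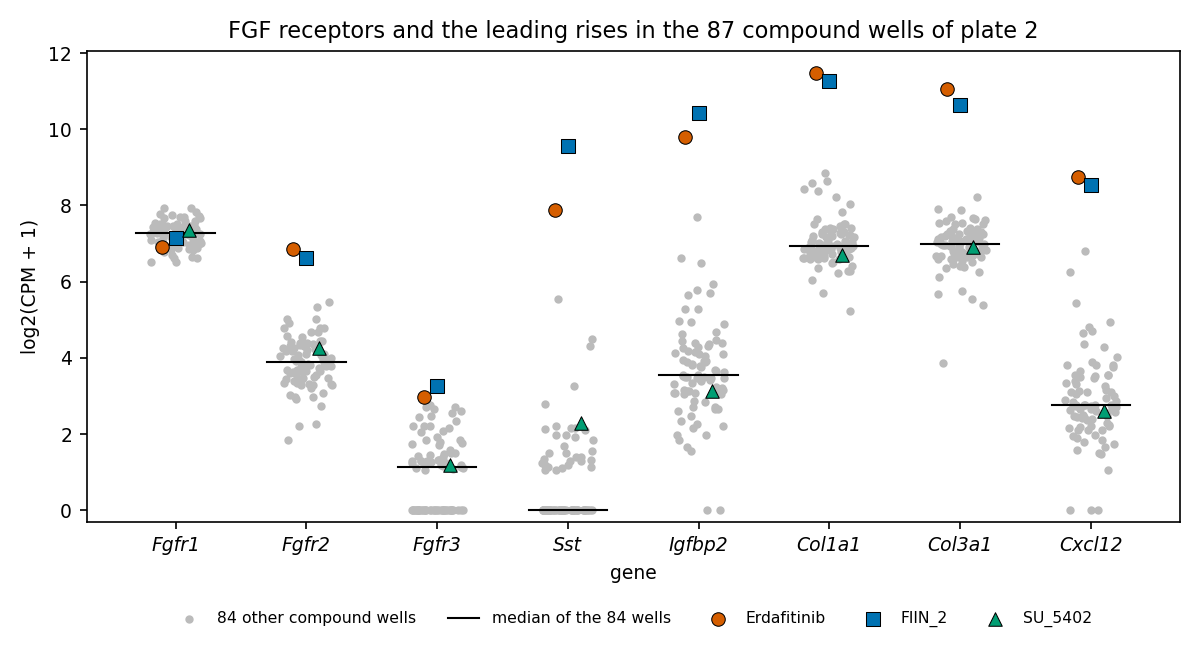
Expression of 3 FGF receptor genes and 5 genes that rose, on the log2(CPM + 1) scale, in each well of plate 2; grey points are the 84 reference wells and the coloured marks the 3 inhibitor wells. Erdafitinib and FIIN_2 lay above every grey point for Fgfr2, Fgfr3, Sst, Igfbp2, Col1a1, Col3a1 and Cxcl12, but not for Fgfr1, and SU_5402 lay within the grey points throughout.

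Fibrillar collagen and other matrix genes rose strongly, while part of the fibroblast list fell. Col1a1 (chr11:94936224-94953042, plus strand), a chain of collagen I, was at 2866 CPM with Erdafitinib, 2469 CPM with FIIN_2 and 103 CPM with SU_5402, with 36.6 to 459 CPM (median 122 CPM) in the reference wells, and rose by 4.17 ± 0.32 and 3.85 ± 0.35 (adjusted p = 7.31e-20 and 1.04e-15). Col3a1 was at 2116 CPM with Erdafitinib, 1591 CPM with FIIN_2 and 119.5 CPM with SU_5402, with 13.5 to 298 CPM (median 125 CPM), and rose by 3.89 ± 0.27 and 3.38 ± 0.30; its exons overlap Gm47302. Sparc, a collagen-binding matrix protein, was at 4704 CPM with Erdafitinib, 5786 CPM with FIIN_2 and 528 CPM with SU_5402, with 456 to 1558 CPM (median 612.7 CPM). The 2 wells lay above all reference wells for these 3 genes, and SU_5402 lay within the range. Of the 26 tested fibroblast and matrix markers 14 rose and 3 fell with Erdafitinib, and 11 rose and 6 fell with FIIN_2 (medians 1.16 and 0.68). All tested genes together had 7.71% and 6.51% risen, and 5.66% and 5.28% fallen. The members that fell in both were Col6a1, a collagen VI chain (-1.36 and -2.27), the filament protein vimentin, Vim (-0.84 and -1.17), and Twist2, a mesenchymal transcription factor (-1.73 and -2.56), and with FIIN_2 also Col6a2, Fn1 and Thy1. Postn, an adhesion protein of matrix, rose with Erdafitinib (3.42 ± 0.61), a call that ended under DESeq2 (adjusted p = 0.0524).

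Of 14 tested receptor kinase genes outside the FGF family 6 rose with Erdafitinib and 2 with FIIN_2, and 0 fell. The lists of this paragraph are to be read beside the shares over all genes, 7.71% and 6.51% up and 5.66% and 5.28% down. They lie outside the 6 FGF and ERK lists, so their shares of risen genes may be raised by the filter. Ddr1, a collagen receptor kinase, was at 85.5 CPM with Erdafitinib, 115.3 CPM with FIIN_2 and 6.42 CPM with SU_5402 against 0 to 43.9 CPM (median 9.16 CPM), and rose by 2.79 ± 0.44 and 3.11 ± 0.50. Pdgfrb rose by 1.48 and 1.25, and Igf1r by 1.77 with Erdafitinib; Pdgfrb with FIIN_2 was not called without the filter on low counts (adjusted p = 0.0695). Tgfb2, a TGF-beta ligand, was at 174 CPM with Erdafitinib, 305 CPM with FIIN_2 and 21.8 CPM with SU_5402 against 3.77 to 70.3 CPM (median 19.7 CPM), above every reference well in both, and rose by 2.84 ± 0.34 and 3.55 ± 0.35. It was one of 3 TGF-beta response genes that rose with Erdafitinib and 2 with FIIN_2 of 12 tested, a list with medians of -0.24 and -0.21. Among Wnt targets Lgr5, Nkd2 and Tnfrsf19 rose and the transcription factor Tcf7 fell in both wells, and Dkk2 rose with FIIN_2, of 11 tested; under DESeq2 the FIIN_2 calls of Lgr5 and Tcf7 ended (0.110 and 0.0679). Of 8 tested YAP targets 3 rose and 1 fell with Erdafitinib, and 2 rose and 0 fell with FIIN_2. Amotl2, a scaffold that restrains YAP, rose by 2.80 and 3.35 and Crim1 by 1.68 and 1.68, and Lats2, whose exons overlap those of Gm49361, by 1.79 with Erdafitinib. Nt5e, which encodes an ecto-enzyme that makes adenosine, was the one that fell, at 0 counts with Erdafitinib, at least 1.69-fold lower (adjusted p = 0.0447); the call ended in 4 other settings, DESeq2 among them (adjusted p = 0.0519 to 0.116). Cyp1b1, a cytochrome P450 of the aryl hydrocarbon receptor (AHR) target list, was at 138 CPM with Erdafitinib, 285 CPM with FIIN_2 and 19.3 CPM with SU_5402 against 4.68 to 129 CPM (median 18.4 CPM), and rose by 2.52 ± 0.47 and 3.47 ± 0.46. It was the only one of 4 tested AHR targets called with Erdafitinib, and with FIIN_2 the receptor gene Ahr also rose (2.63 ± 0.64).

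Of 9 tested inflammatory genes 3 rose with Erdafitinib and 5 with FIIN_2, and of 7 interferon response genes 2 and 3 rose. Over all genes 7.71% and 6.51% rose. Both lists may hold some of the 6 list genes with enough counts only through the 3 wells. Their shares may therefore be raised by the filter. DESeq2 called 1 and 2 of the inflammatory genes and 2 and 4 of the interferon response genes. Ifitm3, an interferon-induced membrane protein that restricts viral entry, rose by 0.73 and 0.73, and its call with FIIN_2 ended with no filter on low counts (adjusted p = 0.0869). Saa3, an acute phase protein, was at 34.5 CPM with Erdafitinib, 262 CPM with FIIN_2 and 0 CPM with SU_5402 against 0 to 65.8 CPM (median 1.65 CPM). The FIIN_2 well was the highest of the plate and the Erdafitinib well lay inside the reference range. Its log2 fold change was 2.98 ± 0.96 (adjusted p = 0.0247) and 5.80 ± 0.67 (adjusted p = 7.61e-11), DESeq2 called neither (0.490 and 0.107), and the difference between the 2 wells was -2.82 (95% interval -5.50 to -0.14, adjusted p = 0.336). Ptx3, a soluble pattern receptor, rose by 4.48 and 4.53; DESeq2 did not call it (0.0838 and 0.0920). Cxcl5 and Nfkbia, a chemokine and the inhibitor of NF-kappaB, were called with FIIN_2 only (3.23 and 1.70), of which Cxcl5 was not called by DESeq2 (0.0880). The 7 macrophage markers in the table summed to 77.2 CPM with Erdafitinib, 164 CPM with FIIN_2 and 86.1 CPM with SU_5402, against 10.8 to 674 CPM (median 84.1), and of 5 tested 1 rose with Erdafitinib and 0 with FIIN_2. It was Csf1r, the receptor of the macrophage growth factor, which rose by 1.82 ± 0.63 (adjusted p = 0.0403) and lost the call under DESeq2 (0.0602); its exons overlap those of Hmgxb3. Ptprc and Cd14, which define blood leukocytes and monocytes, were at 0 in all 3 wells.

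Genes of DNA replication were lower, and genes of mitosis were not called. Of 19 tested S phase genes 13 fell with Erdafitinib and 12 with FIIN_2, and 0 rose (medians -1.37 and -1.81, or -1.31 and -1.58 with Ung, at 0 counts in both wells, set to its bound). In the same wells 5.66% and 5.28% of all genes fell. Ccne1, which encodes cyclin E1, was at 9.65 CPM with Erdafitinib, 14.4 CPM with FIIN_2 and 66.8 CPM with SU_5402 against 7.70 to 112 CPM (median 64.3 CPM), and fell, with log2 fold changes of -2.87 ± 0.64 and -2.40 ± 0.71. Cdt1, a replication licensing factor, was at 15.2 CPM with Erdafitinib, 5.76 CPM with FIIN_2 and 47.5 CPM with SU_5402 against 23.6 to 103 CPM (median 52.6 CPM), and fell (-1.99 and -3.45). E2f1, the factor that drives this group, fell (-1.95 and -1.37), and the helicase gene Mcm3 (-1.80 and -3.13). With Erdafitinib, Ung and Uhrf1 lost their calls under DESeq2 (adjusted p = 0.0677 and 0.0722). Of 19 tested G2/M genes edgeR called 0 in any of the 3 wells, with 6, 7 and 1 at an unadjusted p below 0.05 and 0, 0 and 0 called by DESeq2. Their medians were -0.67, -1.01 and 0.31, and their summed levels 567 CPM with Erdafitinib, 475 CPM with FIIN_2 and 1037 CPM with SU_5402, against 129 to 1524 CPM (median 871). The p53, unfolded protein, ATF4 and cholesterol synthesis lists had at most 1 called member in each direction in either well, against 13.4% and 11.8% of all genes.

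**Figure D3:**
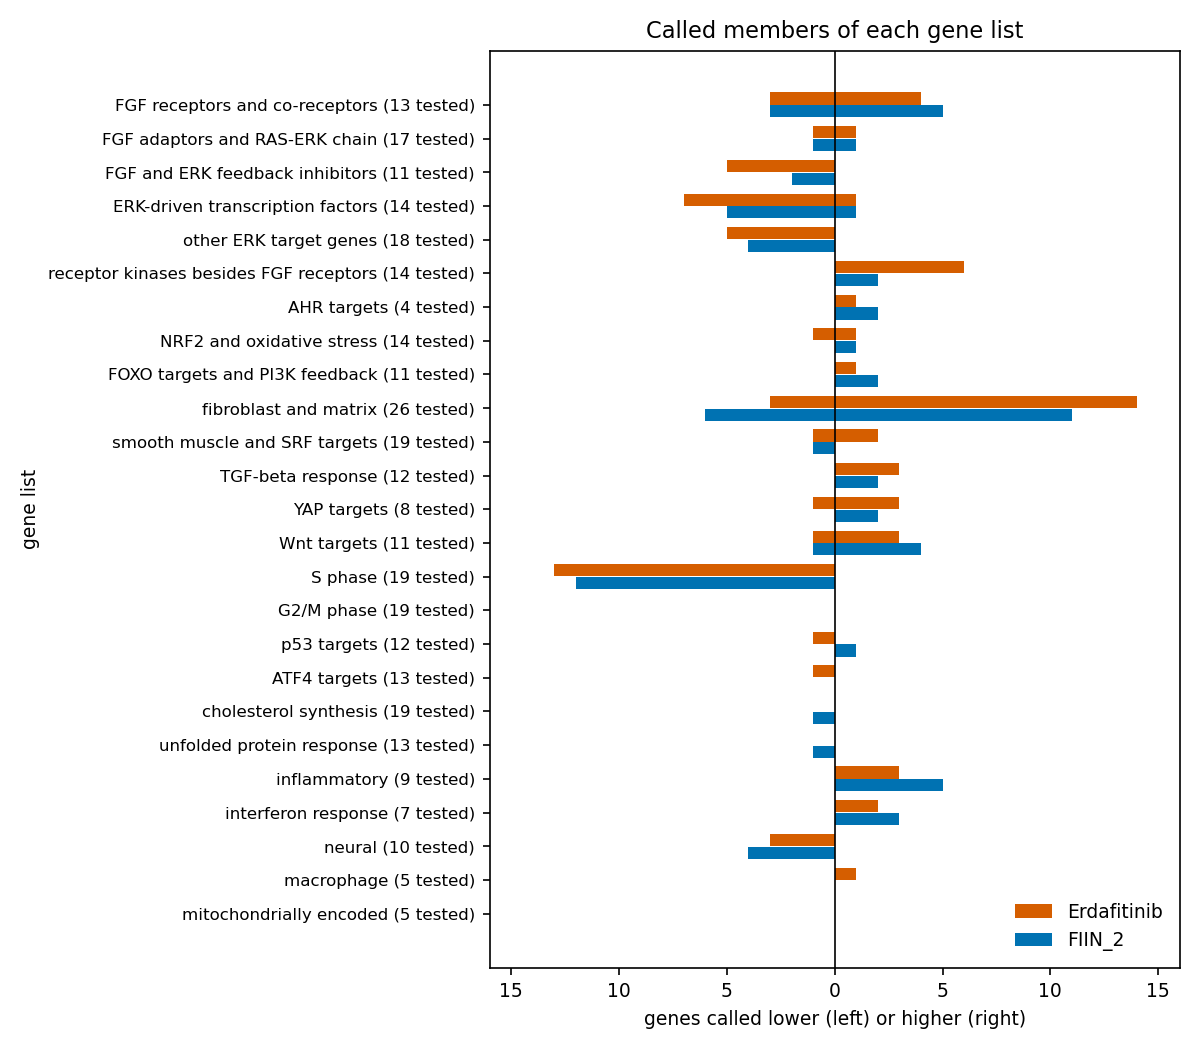
Number of called genes in each list with at least 4 tested members, for Erdafitinib and for FIIN_2 against the reference wells of plate 2; bars to the right count genes that rose and bars to the left genes that fell (edgeR adjusted p under 0.05). S phase genes stood only on the fallen side (13 and 12 of 19), fibroblast and matrix genes mostly on the risen side (14 and 11 of 26), and G2/M genes on neither. Over all genes 7.71% and 6.51% rose, and 5.66% and 5.28% fell. SU_5402 had no called gene and is not drawn.

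Markers of other cell types were checked beside these results. Of 10 tested neural markers 3 fell with Erdafitinib and 4 with FIIN_2, and 0 rose. The shares of all genes that fell were 5.66% and 5.28%. Nrgn, a calmodulin-binding protein of neurons whose transcript was also found in the reference wells, was at 11.0 CPM with Erdafitinib, 8.64 CPM with FIIN_2 and 526 CPM with SU_5402 against 3.85 to 678 CPM (median 451 CPM). The Erdafitinib and FIIN_2 wells were among the 3 lowest of the plate. Nrgn fell with Erdafitinib (-5.39) and to a ratio of 0.0209 (95% counting interval 0.00430 to 0.0610) with FIIN_2. Nefl, a neurofilament gene, was at 5.51 CPM with Erdafitinib, 5.76 CPM with FIIN_2 and 98.9 CPM with SU_5402 against 9.84 to 162 CPM (median 65.7 CPM), and Nes, an intermediate filament of progenitors, fell with FIIN_2 (-2.78 ± 0.60). The 10 epithelial markers summed to 56.5 CPM with Erdafitinib, 92.2 CPM with FIIN_2 and 23.1 CPM with SU_5402, against 3.70 to 183 CPM (median 33.7), with Epcam and Cdh1 at 0 in all 3 wells, and the 8 endothelial markers to 19.3 CPM with Erdafitinib, 5.76 CPM with FIIN_2 and 6.42 CPM with SU_5402, against 0 to 30.4 CPM (median 5.86). The 8 adipocyte markers summed to 60.7 CPM with Erdafitinib, 46.1 CPM with FIIN_2 and 3.85 CPM with SU_5402, against 0 to 50.1 CPM (median 7.54), of which Lpl, lipoprotein lipase, rose by 3.46 and 3.05 while Pparg and Adipoq were at 0. Whether a change in the cells present had a part in any of the gene results was not tested.

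No gene was called in the SU_5402 well, nor was any member of the 31 lists. Its median log2 fold change was -0.64 over the feedback inhibitors, -0.01 over the ERK-driven factors and -0.01 over the fibroblast and matrix genes, and the smallest adjusted p over all genes was 1.00. The 95% intervals were -0.52 to 0.88 for Etv4, -0.997 to 0.41 for Etv5, -0.43 to 0.76 for Hmga2 and -0.48 to 0.71 for Ccnd1, which leave out falls of the size seen with Erdafitinib and FIIN_2. The 5 genes of lowest unadjusted p, none of them called, were Rfwd3, a ubiquitin ligase gene (0.92 ± 0.27), Kctd1 (1 count), Csnk2a1, a casein kinase 2 gene (2 counts), Mtg2 (-1.56 ± 0.52) and Itfg1 (1.03 ± 0.35). Whether its dose was an active one was not tested.

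The 3 pairs of compounds were then compared directly, with p-values adjusted over the genes of all 3 pairs. Between Erdafitinib and FIIN_2 1 gene of 9431 was called (0.0106%), Gpatch4, with 19 counts against 0 (adjusted p = 0.0188); DESeq2 called 0, and 310 genes had an unadjusted p under 0.05. A missed threshold does not show that the 2 wells acted alike, and the intervals of their log2 differences show what remains possible. They were -2.11 to 1.55 for Etv5, -1.40 to 0.99 for Hmga2, -0.23 to 1.60 for Ccnd1, -0.80 to 1.45 for Fgfr2, -1.15 to 1.79 for Col1a1 and -3.44 to 0.30 for Sst. For Emp1 the interval was 0.16 to 1.68 (adjusted p = 0.232).

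Erdafitinib differed from SU_5402 in 214 genes (2.27%), of which 99 were lower, and FIIN_2 differed from SU_5402 in 216 (2.29%), 99 higher and 117 lower. With DESeq2 size factors the first split was 142 higher and 74 lower, and with no filter on low counts the 2 totals were 101 and 118. The log2 difference of Hmga2 was -4.15 ± 0.52 between Erdafitinib and SU_5402 (adjusted p = 9.05e-08) and -3.94 ± 0.54 between FIIN_2 and SU_5402 (adjusted p = 1.36e-06). Etv4, Etv5, Fosl1 and Ccnd1 were called lower in both pairs. Col1a1 was 4.60 ± 0.88 and 4.29 ± 0.87 log2 units higher, and Sst, Igfbp2, Cxcl12, Col3a1 and Tgfb2 were higher in both. Fgfr2 was called higher with Erdafitinib than with SU_5402 (2.46 ± 0.63, adjusted p = 0.0225) and missed the threshold with FIIN_2 (2.14 ± 0.66, adjusted p = 0.0735). By size, P2ry2, Car8, Mapk11, Sox7 and Nrgn led the lower and Ogn, Postn, Cxcl14, 9930013L23Rik and Igfbp5 the higher genes of the Erdafitinib pair. Agtr2, Col7a1, 9530053A07Rik, Gpatch4 and Zdhhc8 led the lower and Ogn, Cxcl14, Sst, Igfbp2 and Igfbp5 the higher genes of the FIIN_2 pair. In most of these 20 one well had 0 to 10 counts, and the calls of Ogn, Postn, Cxcl14, Igfbp5, Car8, Mapk11 and Sox7 in the first pair, and of Cxcl14, Igfbp5, Agtr2, Col7a1, 9530053A07Rik, Gpatch4 and Zdhhc8 in the second, ended under at least 1 alternative (adjusted p 0.0506 to 0.169).

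**Figure D4:**
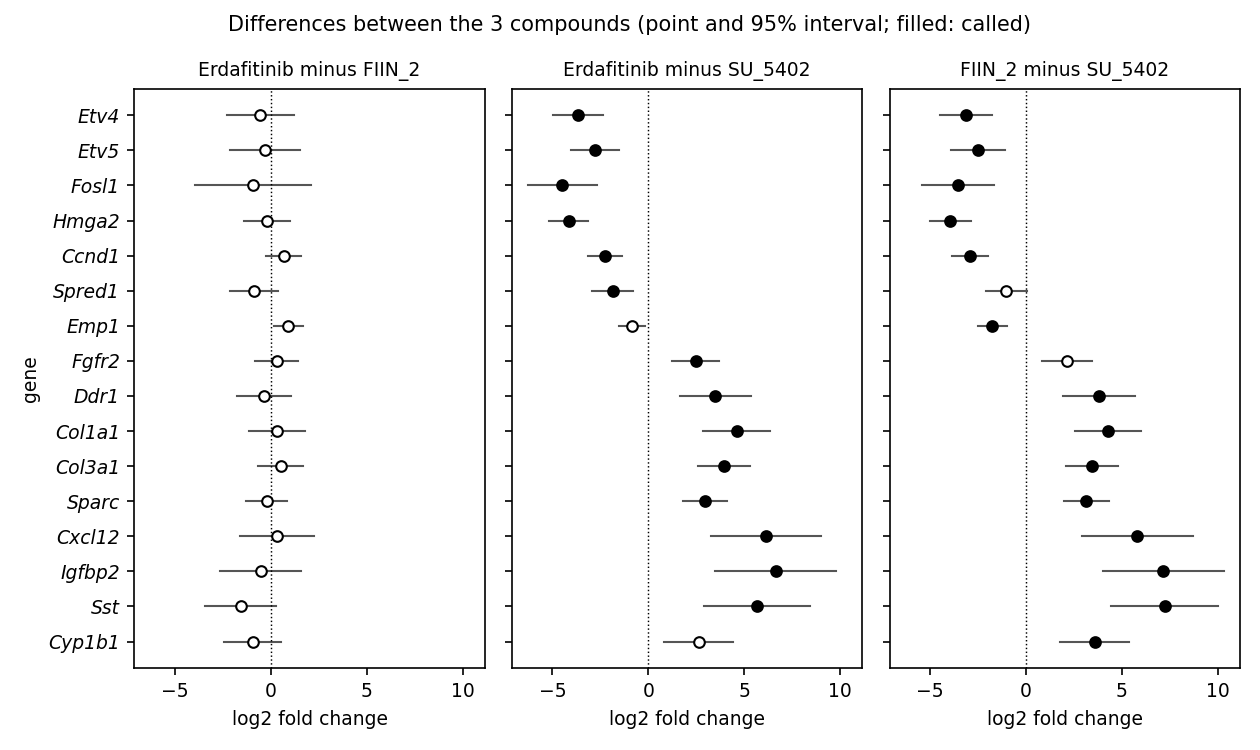
Log2 differences between the 3 pairs of wells for 16 genes, with 95% intervals; filled marks are genes called in that pair (edgeR, adjusted over the 3 pairs) and open marks are not called. The Erdafitinib and FIIN_2 pair has open marks throughout, and both pairs with SU_5402 have filled marks on the lower side for Etv4, Etv5, Fosl1, Hmga2 and Ccnd1 and on the higher side for Col1a1 and Col3a1.

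Treated as 1 group of 3 compounds, the wells differed from the reference in 1152 of 8275 tested genes (13.9%), 704 higher and 448 lower, and this count depended on which wells were in the group. Without SU_5402 it was 2380, without FIIN_2 323 and without Erdafitinib 149. Exact two-sided permutation tests over wells of the mean log2(CPM + 1), with 105995 arrangements and 3 wells against 84, gave p = 0.000943 for Etv4 and p = 0.000189 for Etv5, 0.00506 for Spry4 and 0.0190 for Dusp6 (adjusted over the 4 genes, 0.00189, 0.000755, 0.00674 and 0.0190). The groups differed by -1.85, -1.81, -1.79 and -1.55 on that scale. These tests take 3 different compounds as replicates; SU_5402 lay inside the reference range of Etv4 and Etv5, and Spry4 and Dusp6 had 0 to 2 counts in each of the 3 wells. Among genes that lay on the same side of the reference mean in all 3 wells, Sst, Lrrc17, Sned1, Serping1, Pnoc, Fbln7, Ackr3, Cntfr, Cdon and Plagl1 rose by the largest amounts. Ackr3, a scavenging receptor for Cxcl12, was at 124 CPM with Erdafitinib, 127 CPM with FIIN_2 and 16.7 CPM with SU_5402 against 0 to 51.5 CPM (median 12.6 CPM), so SU_5402 lay inside the reference range. Spp1, which encodes osteopontin, was among the genes that fell, with 44.1 CPM with Erdafitinib, 37.5 CPM with FIIN_2 and 1539 CPM with SU_5402 against 132 to 13221 CPM (median 2012 CPM); the Erdafitinib and FIIN_2 wells were the 2 lowest of the plate. The others that fell by most were Arhgap22, Dusp4, Vsig2, Entpd1, Rnf183, Prokr2, Ccl12, Klf10 and Mmp10.

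Other receptor kinase inhibitors of the plate were compared next. Set against 7 wells of inhibitors aimed at VEGF and PDGF receptors, the 3 wells as a group differed in 779 of 8275 genes (9.41%), 506 higher and 273 lower; without SU_5402 the count was 2003, without FIIN_2 218 and without Erdafitinib 91. In comparisons for each compound, added after the data were seen, Erdafitinib differed from those 7 wells in 1100 genes (11.7%) and FIIN_2 in 893 (9.47%), while SU_5402 differed in 0 (0%, with 199 at an unadjusted p under 0.05). Against 9 EGFR and HER2 inhibitor wells the counts were 1163 (12.3%), 1040 (11%) and 0 (0%, with 170 unadjusted). The log2 difference of Etv4 from the VEGF and PDGF receptor wells was -3.40 with Erdafitinib and -2.86 with FIIN_2. For Hmga2 it was -4.18 and -3.97, and for Col1a1 4.06 and 3.74. Another 3 kinase inhibitors known to act on FGF receptors among several targets, Dovitinib, BIBF_1120 and S49076, were part of the reference. Dovitinib and BIBF_1120 had 88.5 and 72.3 CPM of Etv4, 372 and 279.6 CPM of Hmga2 and 385 and 459 CPM of Col1a1. These levels lay between those of the 2 FGF receptor inhibitor wells and the reference medians, as did those of other reference wells. For example, ON123300 had 82.6, 377 and 398 CPM of the 3 genes and GNF_7 had 73.1, 249.8 and 158 CPM, wells chosen after their values were seen. S49076 had 159, 638 and 121 CPM. Sst was inside the reference range in all 3, at 2.81, 0 and 0 CPM. For Cxcl12 BIBF_1120 and Dovitinib were the 2 highest reference wells, at 109.9 and 75.9 CPM, with GNF_7 next at 42.4 CPM. For Fosl1 they were the 2 lowest, at 25.0 and 33.7 CPM, with GNF_7 next at 35.4 CPM. S49076 had 2.75 CPM of Cxcl12 and 107 CPM of Fosl1. NT157 was lower than both in Etv4 and Hmga2, at 59.7 and 212 CPM. These genes and wells were also chosen after their values were seen.

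MEK is the kinase that activates ERK further down the same chain, and its inhibitors lay on plate 1, so this comparison across plates, also added after the data were seen, used a fit with a plate term. Trametinib, GDC_0623 and Ro_5126766 had totals of 249434, 331844 and 45416 counts, the last far below the plate 1 median of 318876.5. Against these 3 wells Erdafitinib differed in 5 of 8774 genes (0.057%, with 480 at an unadjusted p under 0.05) and FIIN_2 in 10 (0.114%, with 686), whereas SU_5402 differed in 410 (4.67%). Etv4 was at 4.01, 24.1 and 22.02 CPM in the 3 MEK inhibitor wells, against 23.1 to 201 CPM (median 132) in the other wells of plate 1. Hmga2 was at 12.03, 63.3 and 132 CPM, Sst at 140.3, 99.4 and 0 CPM and Col1a1 at 2662, 2290.2 and 418 CPM. The log2 difference between Erdafitinib and the MEK inhibitor wells was -0.32 for Etv4 (95% interval -1.93 to 1.29), -0.16 for Hmga2 (-1.32 to 1.00) and 0.59 for Col1a1 (-0.80 to 1.98), and for FIIN_2 it was 0.20 (-1.43 to 1.84), 0.03 (-1.22 to 1.29) and 0.26 (-1.16 to 1.68). The 5 genes called with Erdafitinib were Crip1, Upk1b and Tubb3, lower, and KCTD12 and Wsb1, higher, and they were picked out after their values were seen. Crip1, a LIM domain protein gene, was also lower with FIIN_2 (-4.29 and -6.36), and it stood at 1724, 208 and 154 CPM in the MEK inhibitor wells, which differed among themselves. The counts rested on single MEK wells: without Trametinib they were 0, 10 and 82 for Erdafitinib, FIIN_2 and SU_5402, and without Ro_5126766 they were 5, 6 and 634.

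**Figure D5:**
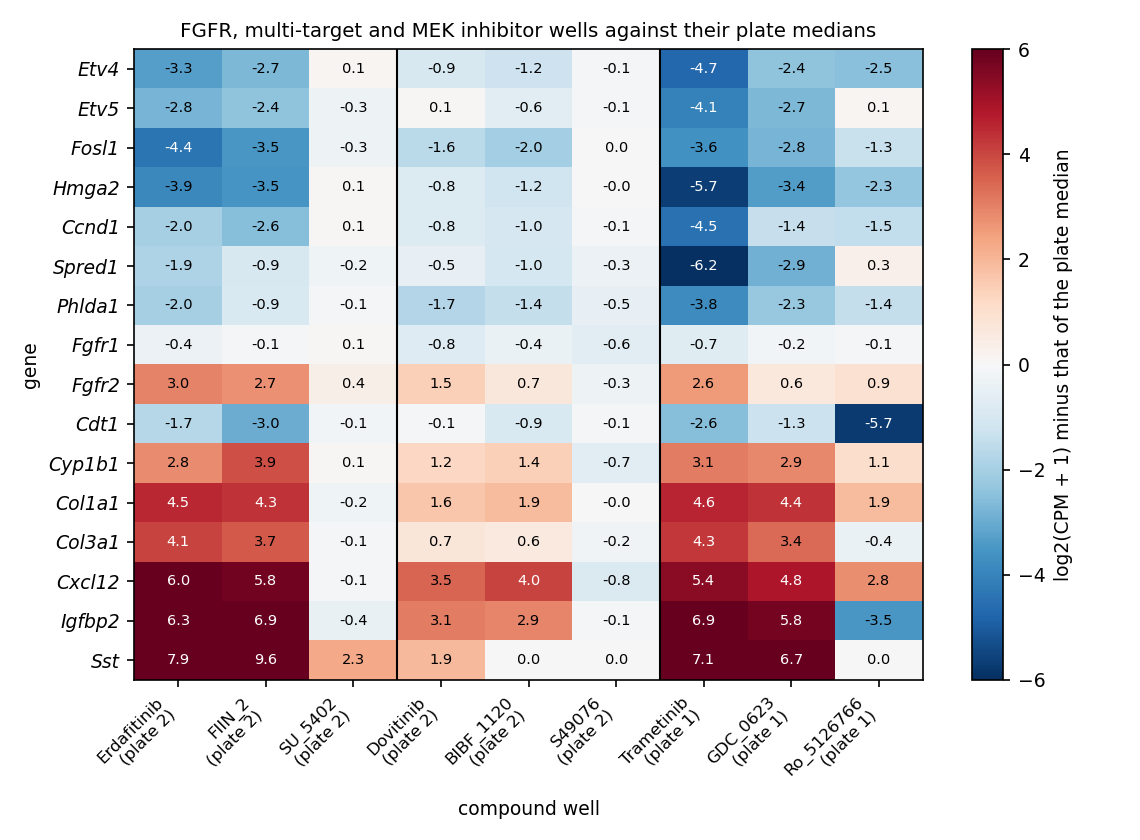
Heat map of log2(CPM + 1) minus the median of the plate for selected genes (rows) in 9 wells (columns), with each value printed: the 3 FGF receptor inhibitors, Dovitinib, BIBF_1120 and S49076 on plate 2, and the MEK inhibitors Trametinib, GDC_0623 and Ro_5126766 on plate 1. The colour scale stops before the largest printed values; Erdafitinib, FIIN_2, Trametinib and GDC_0623 share low Etv4 and Hmga2 and high Col1a1, and the SU_5402 and S49076 columns are close to 0, apart from Sst with SU_5402, which rests on 3 counts.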

How the data were processed

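Whole-number counts of reads per gene and well were deposited by the authors as 1 table of 20471 genes, with barcode lists that name the compound of each well. STAR and the mouse build mm10 are named in the submitters' processing notes; no version of STAR, counting program, annotation, strand setting or treatment of molecular identifiers is stated there or in the labels. Of 274 columns 258 could be given to 1 of 3 plates by name and 16 were not used, among them PD_166866, another FGF receptor inhibitor listed on both plate 1 and plate 2. Another 4 columns repeated a well and were counted once.

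From these counts, wells of plate 2 with at least 10% of the median total of 606767 were kept (2 were below it), and genes were filtered with filterByExpr (minimum count 10). The counts were TMM-scaled and tested in edgeR 4.0.16 (R 4.3.3, limma 3.58.1) with quasi-likelihood tests and Benjamini-Hochberg adjustment, over all genes and, for the 3 pairs, over all pairs. DESeq2 1.42.0, DESeq2 size factors, no filter, a reference without kinase classes near the FGF and ERK chain, all wells, and wells of at least 50% of the median total were the alternatives. The fit was also run on simulated data with the same dispersion for every gene and no compound effects among the reference wells. That run cannot show how well a single well is judged by the spread between different compounds. Gene positions and exon overlaps come from a GENCODE annotation of mm10, and promoters from RefSeq. For a gene at 0 counts, the bound is the fold between the pooled reference and a floor of 3 counts in that well, and for 1 to 3 counts the ratio has an exact 95% counting interval; bounds and intervals cover counting error only.

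The compounds, gene lists and tests were chosen with earlier results of these data known. Genes are named by a fixed rule: for each compound the 10 largest called rises and falls with a plate mean of at least 10 CPM, every measured gene of the 6 FGF and ERK lists, up to 4 called members of each of the other lists, the 5 lowest p where fewer than 5 were called, and for pairs the 5 largest called differences in each direction. Genes named outside it (Fgfr3, the matrix genes that fell, namely Col6a1, Vim, Twist2, Col6a2, Fn1 and Thy1, E2f1 and Nfkbia in single wells, single reference wells, the MEK inhibitor values, Mmp10 with FIIN_2 and the called MEK differences) were chosen after their values were seen. Not every uncalled member of the 6 FGF and ERK lists is printed. Those left out went both ways with Erdafitinib, such as Dusp1 (log2 fold change 0.91) and Epha2 (-1.74).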

Additional observations from a re-analysis of the deposited data

Results flagged for a closer look

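The direct differences between compounds stand out. Between Erdafitinib and SU_5402 214 genes were called (99 of them lower with Erdafitinib), and between FIIN_2 and SU_5402 216 genes (99 higher and 117 lower with FIIN_2), while 1 gene, Gpatch4, was called between Erdafitinib and FIIN_2. These are tests of the difference itself between wells with 1 well per compound, and the doses are not stated in the labels.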

How the results depend on the processing

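The counts of called genes kept their size under the other settings for Erdafitinib (1165 to 1353) and FIIN_2 (887 to 1296), and SU_5402 stayed at 0 in all of them. Between Erdafitinib and FIIN_2 the count was 3 with a reference without kinase classes near the FGF and ERK chain, 5 with wells of at least 50% of the median total and 0 with DESeq2. With no filter on low counts, Erdafitinib differed from SU_5402 in 101 genes and FIIN_2 in 118. Without filter the genes called with Erdafitinib were 68.2% higher (57.7% in the fit as reported), and those of the 3 wells together 74.3% (61.1%). Leaving out 1 of the 3 wells moved the count of the group from 149 to 2380 against the reference, and from 91 to 2003 against the VEGF and PDGF receptor inhibitor wells. Leaving out 1 MEK inhibitor well gave 0 to 6 genes for Erdafitinib, 6 to 14 for FIIN_2 and 82 to 634 for SU_5402. Lmod1, a smooth muscle gene, reversed in the 3 wells together without Erdafitinib; its log2 fold change ran from -0.37 there to 2.52 without SU_5402. Of the values for single named genes 2967 kept direction and side of the threshold, 259 lost the call and 17 gained it, while 21 uncalled values changed sign and 1 called value, that of Lmod1, reversed. The cause of these shifts was not tested. No paired analysis was possible because each compound had 1 well and the labels number no replicates across plates. The planned test against MEK inhibitor wells of the same plate was not run, since plate 2 lists none. Depth limits genes under about 10 counts in a well, which hold most of the feedback inhibitors and the largest falls.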

Other observations

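Called members of other lists follow, to be read beside the 13.4% of all genes called with Erdafitinib and 11.8% with FIIN_2. Of 14 tested oxidative stress genes Gstm1, a glutathione transferase, rose in both wells (1.52 with Erdafitinib and 1.33 with FIIN_2), and the cystine transporter gene Slc7a11 fell with Erdafitinib (-2.54 ± 0.67; 8.27 CPM with Erdafitinib, 14.4 CPM with FIIN_2 and 51.4 CPM with SU_5402). Of 11 FOXO and PI3K feedback genes Klf4 rose in both (3.03 and 3.31), which DESeq2 called in neither (adjusted p = 0.185 and 0.166). Of 19 smooth muscle and SRF genes 2 rose and 1 fell with Erdafitinib and 1 fell with FIIN_2; Fhl2, a LIM domain cofactor, was the member that fell (-1.57 and -2.68). Of 12 p53 targets Bax fell with Erdafitinib (-0.66) and Trp53inp1 rose with FIIN_2 (1.04), the latter not without the filter on low counts (adjusted p = 0.0918). Of the skeletal muscle markers the embryonic myosin gene Myh3 rose with Erdafitinib (2.74 ± 0.66), and the 6 markers summed to 121 CPM with Erdafitinib, 107 CPM with FIIN_2 and 39.8 CPM with SU_5402, against 10.3 to 199 CPM (median 31.9) in the reference wells. The 7 markers of pluripotency and extraembryonic endoderm summed to 19.3 CPM with Erdafitinib, 20.2 CPM with FIIN_2 and 5.14 CPM with SU_5402, against 0 to 24.3 CPM (median 6.88).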
